A study of Mus musculus with 5 samples.

Results

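The genes described here are 45 genes of the cell cycle, taken by symbol from the gene lists of 5 single-cell RNA sequencing libraries of mouse 4T1 mammary tumors. All 45 were found, among 32285 genes listed for the T cell libraries and 54987 for the whole-tumor libraries. For the sums below, 19 were counted as S-phase genes and 25 as mitotic genes, and Stmn1, which encodes the microtubule-binding protein stathmin, was counted in neither. The rule used no measured value. The genes were followed by lineage of the cell (CD8, CD4, NK, cancer, fibroblast and macrophage) and by library, beside the share of cycling cells and within those cells.

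A dividing cell copies its DNA in S phase, which needs the loading of the MCM helicase onto origins, a sliding clamp that holds the polymerase on DNA, and enzymes that make deoxynucleotides. It then enters mitosis, driven by cyclin A and cyclin B with Cdk1, attaches its chromosomes to the spindle through the kinetochores, and leaves mitosis when the anaphase-promoting complex marks cyclins for destruction. Transcription of the S-phase genes is known to depend largely on E2F factors, and that of the mitotic genes on the DREAM and MuvB complexes, which bind the CHR promoter element, and on NF-Y, which binds CCAAT boxes. In tumors, cancer cells and antigen-stimulated T cells are the usual dividing cells, whereas mature neutrophils do not divide.

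The promoters of both groups are shown because the 2 sets of genes were separated below by their levels, and the stretches were picked as examples of the 3 motifs. RefSeq (GRCm38.p6) gave a promoter of 250 bases before and 50 bases after the start for 36 of the 45 genes and for 27025 genes in all. Searched on both strands, the CHR motif (TTTGAA or TTCGAA) was in the promoters of 16 of 20 mitotic genes and 2 of 16 S-phase genes, against 21.7% of all promoters. The CCAAT motif (CCAAT) was in 18 of 20 mitotic and 10 of 16 S-phase promoters, against 41.1% of all. The E2F motif (TTCCCGC or TTGGCGC) was in 3 of 20 mitotic and 8 of 16 S-phase promoters, against 7.79% of all. A TTGGCGC that follows an A also holds CCAAT on the other strand and was counted for both, the other motifs cannot hold one another, and a match describes the letters of the window, not a bound site. The 100 bases before the start are printed below for 4 mitotic genes and 4 S-phase genes, on the strand of the gene, with matches to any of the 3 motifs, in either orientation, in capitals. The mitotic genes are Cdk1 (chr10:69352913-69353012, minus strand), the kinase of mitotic entry, Ccnb2 (chr9:70421555-70421654, minus strand), cyclin B2, Cdc20 (chr4:118437344-118437443, minus strand), an activator of the anaphase-promoting complex, and Kif11 (chr19:37376282-37376381, plus strand), a motor that separates the spindle poles. The S-phase genes are Mcm2 (chr6:88898781-88898880, minus strand) and Mcm6 (chr1:128359706-128359805, minus strand), both helicase subunits, Rrm1 (chr7:102441595-102441694, plus strand), the large subunit of ribonucleotide reductase, and Uhrf1 (chr17:56303237-56303336, plus strand), which maintains DNA methylation after replication.
Cdk1: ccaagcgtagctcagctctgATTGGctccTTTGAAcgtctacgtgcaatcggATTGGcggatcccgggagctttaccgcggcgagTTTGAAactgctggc
Ccnb2: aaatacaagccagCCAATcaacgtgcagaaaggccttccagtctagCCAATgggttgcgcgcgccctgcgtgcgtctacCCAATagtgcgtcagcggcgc
Cdc20: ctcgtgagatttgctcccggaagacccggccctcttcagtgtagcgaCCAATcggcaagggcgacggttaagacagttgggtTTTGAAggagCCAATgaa
Kif11: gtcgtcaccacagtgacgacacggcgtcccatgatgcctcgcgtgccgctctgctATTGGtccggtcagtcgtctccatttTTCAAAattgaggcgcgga
Mcm2: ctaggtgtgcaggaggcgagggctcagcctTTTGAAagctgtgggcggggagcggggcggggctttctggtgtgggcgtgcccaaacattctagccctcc
Mcm6: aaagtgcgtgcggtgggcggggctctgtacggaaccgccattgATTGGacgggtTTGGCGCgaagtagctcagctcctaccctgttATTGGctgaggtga
Rrm1: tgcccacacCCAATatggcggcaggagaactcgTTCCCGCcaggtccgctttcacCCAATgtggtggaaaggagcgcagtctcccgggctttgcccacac
Uhrf1: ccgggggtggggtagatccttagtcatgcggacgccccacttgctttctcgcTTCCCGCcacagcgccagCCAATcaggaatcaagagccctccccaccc

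The tumors grew in the mammary fat pad of 12-week-old mice of the BALB/c strain from the 4T1-Thy1.1 line, which carries the CD90.1 surface marker, and the treated mice had received 3 doses of 5 mg/kg doxorubicin (DOX), 3 days apart. A tumor whose growth was inhibited was called sensitive and a tumor that kept growing was called resistant. There were 2 T cell libraries, DOX resistant and DOX sensitive, each pooled from 3 tumors after depletion of CD90.1-positive cancer cells and of non-T cells, and 3 whole-tumor libraries, DOX resistant, DOX sensitive and a control from saline-treated mice. The whole-tumor resistant library is named by its title and response label, since its source field names sensitive tumors. Each group was thus 1 library, so no difference below has a replicate check, no p-value is given, and every 95% interval covers the counting error only.

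The T cell libraries held 6116 barcodes with 35908799 unique molecular identifiers (UMIs) in the resistant library and 3949 barcodes with 31690845 UMIs in the sensitive library, and 3091 and 3448 cells were kept. The 2 libraries stood apart in the mitochondrial share of UMIs, with a median of 8.95% per barcode in the resistant library and 2.47% in the sensitive library, and a 10% limit removed 26.5% and 3.11% of the barcodes. The whole-tumor libraries held 275 (resistant), 278 (sensitive) and 501 (control) barcodes with 537293 to 1731940 UMIs, and listed every mitochondrial gene at 0. The T cell libraries shared 31 barcodes with each other, and no other pair of libraries shared more than 4. Cells were assigned to a lineage by the share of its marker genes with a UMI, and cells that met more than 1 lineage were left out. The whole-tumor libraries had 1 exception: a cell that met the neutrophil lineage and 1 other was kept under the other lineage. The CD8 gate (a T cell with a Cd3 UMI and Cd8a or Cd8b1 but no Cd4) held 1546 resistant and 1300 sensitive cells, which were 50.0% and 37.7% of kept cells. Despite the depletion, 109 resistant and 83 sensitive cells met the cancer gate, and in both libraries all 9 cancer markers had UMIs there. In the NK gate, 6 of 7 NK markers had UMIs and the CD8 markers were at 0, while T cell markers other than the excluded Cd3 genes summed to 154 (resistant) and 257 (sensitive) of every 1000000 UMIs in the gate.

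A cell was called cycling when, after random thinning to 1000 UMIs, it held at least 2 UMIs of 52 other cell cycle genes (20 of S phase and 32 of mitosis), none of them among the 45. In the CD8 gate, 212 of 1543 resistant cells were cycling, or 13.7% (12.1 to 15.6), against 118 of 1293 sensitive cells, or 9.13% (7.61 to 10.8). Sensitive over resistant, this is a ratio of 0.664 (0.537 to 0.822), so the share in the sensitive library was lower by more than the counting error with this call. A call from 1 UMI of Mki67 gave 80 resistant cells (5.18%) and 48 sensitive cells (3.71%), a ratio of 0.716 whose interval (0.504 to 1.02) included 1. Without thinning, the shares were 46.8% and 37.5%. The cut fell where cells were common, since 308 resistant and 258 sensitive CD8 cells held 1 caller UMI and 68 and 57 held exactly 2. In neutrophils, which stand for the background of the call, 1 of 165 resistant and 3 of 136 sensitive cells were called, or 0.606% and 2.21%, at median depths of 2511 and 2221 UMIs against 4620 and 4043 in the CD8 gate. The neutrophil gate differed between the libraries in markers of immature neutrophils, whose precursors divide, at 4726 CPM (UMIs for every 1000000) in the resistant and 50.1 CPM in the sensitive library, beside 100228 and 91390 CPM of neutrophil markers. The part of immature cells in these shares was not tested.

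The cancer gate went the other way. There, 16 of 108 resistant cells (14.8%, 8.71 to 22.9) and 20 of 83 sensitive cells (24.1%, 15.4 to 34.7) were cycling, with a ratio of 1.63 whose interval (0.900 to 2.94) included 1. The ratio depended on the call: with at least 3 caller UMIs it was 3.90 (1.62 to 9.40), and with at least 1 it was 1.09 (0.744 to 1.60). In the NK gate 6 of 46 resistant and 7 of 79 sensitive cells were cycling (13.0% and 8.86%, ratio 0.679, 0.243 to 1.90). In the macrophage gate the counts were 12 of 136 and 9 of 166 (8.82% and 5.42%, ratio 0.614, 0.267 to 1.41). With at least 1 caller UMI the macrophage ratio was 0.435 (0.253 to 0.749) and without thinning 0.731 (0.538 to 0.994), both below 1 by more than the counting error. In the CD4 gate the counts were 4 of 52 and 10 of 192 (7.69% and 5.21%, ratio 0.677, 0.221 to 2.07), and the ratio was 0.181 (0.0310 to 1.05) with at least 3 caller UMIs and 1.27 (0.831 to 1.94) without thinning. Fibroblasts were at 1.27% and 1.03% (7 of 552 and 8 of 775), close to the shares in neutrophils, with a ratio of 0.814 (0.297 to 2.23), or 0.235 (0.0475 to 1.16) when thinned to 500 UMIs. With this call and at these numbers of cells, no difference between the libraries was detectable in the NK, macrophage, CD4 or fibroblast gate. Among CD4 cells with a UMI of Foxp3, the regulatory T cell factor, 1 of 6 resistant and 2 of 20 sensitive cells were cycling.

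**Figure D1:**
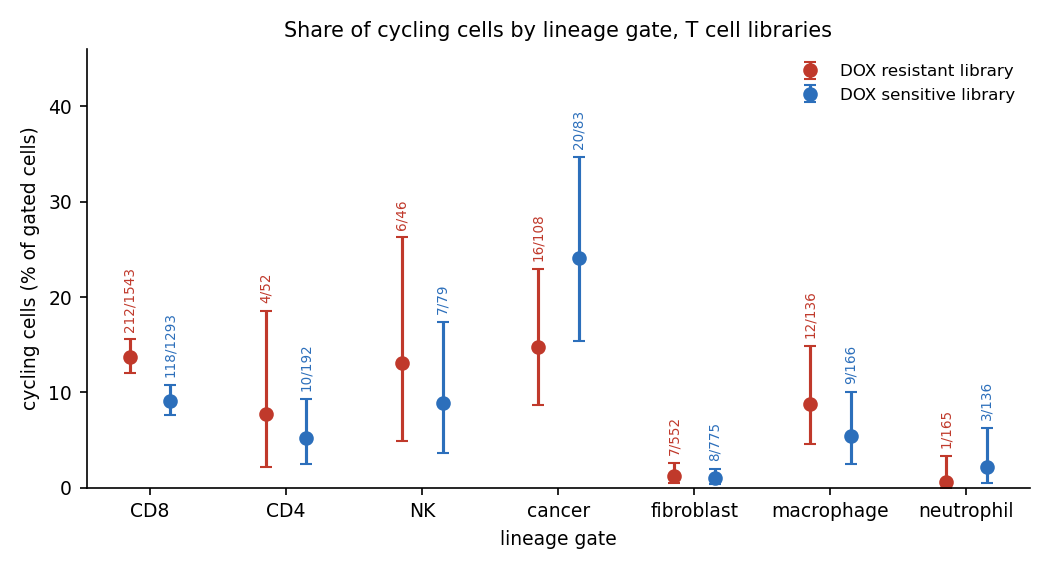
Share of cycling cells (percent of gated cells, y axis) in each lineage gate (x axis) of the DOX resistant and DOX sensitive T cell libraries, with exact 95% binomial intervals as bars and the counts beside each point. The CD8 intervals of 12.1 to 15.6 and 7.61 to 10.8 do not overlap, those of every other gate do, and fibroblasts and neutrophils are lowest.

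The CD8 difference moved with the mitochondrial share of the cells. Among CD8 cells with up to 2.5% mitochondrial UMIs, 22 of 77 resistant cells (28.6%) and 71 of 657 sensitive cells (10.8%) were cycling, a sensitive over resistant ratio of 0.378 (0.25 to 0.573), and from 2.5 to 5% the counts were 100 of 562 (17.8%) and 34 of 553 (6.15%), a ratio of 0.346 (0.238 to 0.501). From 5 to 10% the resistant share was the lower, with 90 of 904 (9.96%, 8.08 to 12.1) against 13 of 83 (15.7%, 8.61 to 25.3), and among the cells from 10 to 20%, which were not kept, it was 41 of 632 (6.49%, 4.70 to 8.70) against 4 of 20 (20%, 5.73 to 43.7). The ratios of these bands were 1.57 (0.920 to 2.69) and 3.08 (1.22 to 7.78), and over both together, with 131 of 1536 resistant and 17 of 103 sensitive cells, the ratio was 1.94 (1.22 to 3.08). The order of the cycling shares thus turned above 5%, by more than the counting error over both bands and not in the kept band alone. The bands were chosen after the data were seen. In the resistant library the cycling share thus fell through all 4 bands, while the sensitive library held few CD8 cells above 5%. Resistant CD8 cells had a median mitochondrial share of 5.68% and sensitive cells 2.49%, so the libraries were compared over different ranges of this measure. The part of mitochondrial content in the cycling difference was not tested beyond these bands.

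**Figure D2:**
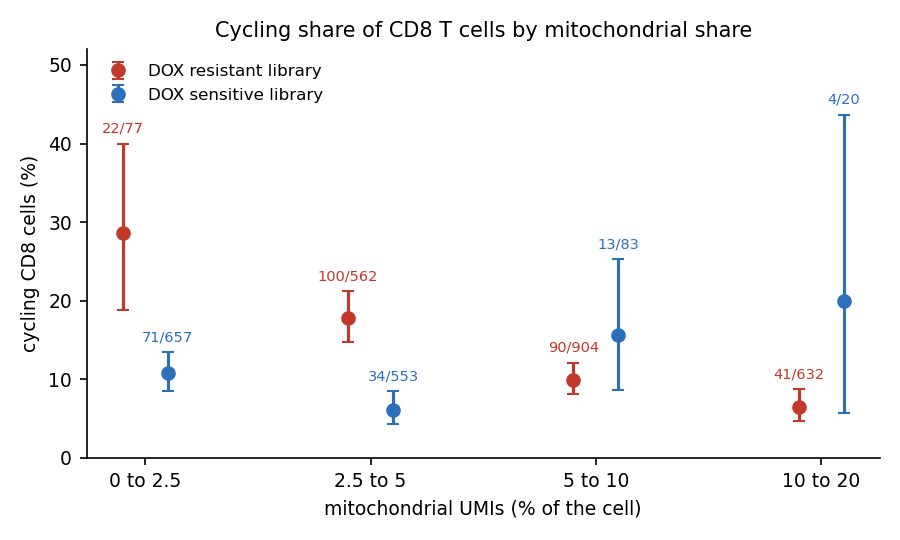
Cycling CD8 cells (percent, y axis) by band of mitochondrial UMIs in the cell (percent, x axis) in the 2 T cell libraries, with exact 95% binomial intervals and counts. The resistant library is higher in the bands up to 5% (28.6% and 17.8% against 10.8% and 6.15%) and lower in those above 5%, where few sensitive cells lie (13 of 83 and 4 of 20 cycling).

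Over all CD8 cells kept, the mitotic genes were lower in the sensitive library and the S-phase genes less so. The level of a gene is given as CPM, its UMIs summed over the cells of a gate for every 1000000 UMIs of those cells, and a ratio is sensitive over resistant CPM. The mitotic sum was 2165 CPM in the resistant and 1499 CPM in the sensitive library (ratio 0.692, 0.676 to 0.710), and the S-phase sum was 1227 and 1121 CPM (ratio 0.914, 0.887 to 0.942). The S-phase ratio over the mitotic ratio was 1.32 (1.27 to 1.37). In the mitochondrial bands both sums were further apart between the libraries than over all cells where the share was low. Up to 2.5% mitochondrial UMIs, the S-phase sum was 2414 CPM in the resistant and 1404 CPM in the sensitive library (0.582, 0.553 to 0.612) and the mitotic sum 3808 and 1856 CPM (0.487, 0.467 to 0.508). From 2.5 to 5% the ratios were 0.527 (0.499 to 0.556) and 0.358 (0.343 to 0.374), and from 5 to 10% they were 0.959 (0.828 to 1.10) and 0.820 (0.720 to 0.932). These 3 bands held 77, 562 and 907 resistant and 659, 556 and 85 sensitive cells. Among the cells from 10 to 20%, which were not kept, the ratios were 1.14 (0.805 to 1.58) and 0.951 (0.686 to 1.29), from 636 resistant and 21 sensitive cells. The mitotic ratio was thus below 1 in every band, with an interval that included 1 from 10 to 20%. Of the 45 genes, 44 had the 100 UMIs over both libraries needed to be compared, all but Ccne2. Of these, 11 were at least 1.5-fold higher in the resistant library and 0 in the sensitive library, against 2.33% and 5.54% of the 8269 genes compared in this gate. The median ratio of the 44 was 0.760, beside 1.09 (0.13 on the log2 scale) over all genes, and 37 lay below 1. Relative to the median of all genes, 18 were at least 1.5-fold higher in the resistant library, against 3.94% of all genes on that scale. The count depended on the mitochondrial limit. With a limit of 5%, chosen after the data were seen, it was 27 of 43, against 3.57% of all genes, and the S-phase ratio was 0.720. With a limit of 20% it was 1 of 44, against 1.99% of all genes, and the S-phase ratio was 1.03.

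Origin licensing and the helicase were the most level of the roles in all CD8 cells. None of the 8 genes reached 1.5-fold, their ratios ran from 0.962 to 1.29, and their summed ratio was 1.06 (1.01 to 1.12). Gins2, a subunit of the active helicase, was lowest, at 17.7 CPM in the resistant and 17.0 CPM in the sensitive library. Cdt1, which loads the MCM ring, was highest, at 29.5 and 38.1 CPM (ratio 1.29, 1.08 to 1.54). Mcm6, the subunit with the highest level in the sensitive library, was at 64.7 and 71.0 CPM. Apart from Cdt1, the interval of every gene of this role included 1.

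The replication clamp and the nucleotide enzymes lay slightly lower in the sensitive library. The clamp gene Pcna was at 135 CPM in the resistant and 116 CPM in the sensitive library (ratio 0.862, 0.786 to 0.945), and Pclaf, whose product binds the clamp, at 194 and 147 CPM (ratio 0.759, 0.700 to 0.822). Uhrf1 was at 28.2 and 25.9 CPM. Of the 3 genes, only Uhrf1 had an interval that included 1. Among the 5 genes of nucleotide synthesis, Dut, which clears dUTP, had the highest level at 249 and 210 CPM (ratio 0.843, 0.787 to 0.902). Tk1, thymidine kinase, was lowest by ratio at 55.6 and 46.5 CPM (0.836, 0.722 to 0.968), and Rrm2, the regulated subunit of ribonucleotide reductase, was highest at 55.2 and 59.9 CPM (1.08, 0.947 to 1.24). The G1/S regulators were scarce: E2f1, a transcription factor of S-phase genes, was at 9.73 and 6.08 CPM (ratio 0.625, 0.417 to 0.922) and Ccne1, cyclin E1, at 11.6 and 10.4 CPM.

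The cyclins and kinases of mitosis were not uniform. Ccnb2 had the lowest ratio of the 6, at 61.6 CPM in the resistant and 37.6 CPM in the sensitive library (ratio 0.610, 0.522 to 0.711). Ccna2, cyclin A2, was at 59.4 and 42.9 CPM (0.722, 0.622 to 0.837) and Cdk1 at 51.9 and 38.7 CPM (0.746, 0.636 to 0.872). Aurka, the kinase of the spindle poles, was at 9.28 and 9.05 CPM and Plk1, a kinase of mitotic entry and exit, at 18.8 and 17.5 CPM, and the intervals of both ratios, like that of Ccnb1, included 1.

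The kinetochore genes and the chromosomal passenger complex had the lowest summed ratios, both 0.632. Cenpe, the motor that moves chromosomes to the spindle equator, had the lowest ratio of all 44 genes: 36.6 CPM in the resistant and 18.6 CPM in the sensitive library (0.508, 0.408 to 0.628). Cenpf, a kinetochore protein of late G2 and mitosis, was at 71.0 and 40.7 CPM (0.573, 0.495 to 0.663). Of the 7 kinetochore genes 5 passed 1.5-fold, the others being Spc25 of the NDC80 complex and the checkpoint kinases Bub1 and Bub1b (0.598 to 0.631). Cenpa, the centromere histone and the most abundant of the role, lay just outside at 149 and 100.2 CPM (0.669), and Spc24 was the highest by ratio at 0.702. In the passenger complex, Birc5 (survivin) was at 131 and 77.5 CPM (0.593, 0.533 to 0.659) and the subunit Cdca8 at 57.2 and 38.1 CPM (0.665). The kinase of the complex, Aurkb, was at 24.8 and 18.9 CPM (0.760, 0.604 to 0.953).

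Of the 5 spindle genes, Nusap1, which bundles microtubules, was at 48.2 CPM in the resistant and 27.8 CPM in the sensitive library (ratio 0.576, 0.481 to 0.688), whereas Kif11 was level at 25.8 and 26.2 CPM (1.01, 0.827 to 1.24). Stmn1, the most abundant of the role, was at 313 and 210 CPM (0.671, 0.628 to 0.716), just outside 1.5-fold. Among genes of mitotic exit, Ube2c, the ubiquitin-conjugating enzyme of the anaphase-promoting complex, was at 187 and 115 CPM (0.613, 0.562 to 0.669) and Cdc20 at 31.1 and 22.9 CPM (0.738, 0.600 to 0.904). Mki67, the Ki-67 coat protein of mitotic chromosomes, was at 115 and 85.1 CPM (0.741, with an interval below 1), and Hmgb2, a DNA-bending protein and the most abundant of the 45 genes in this gate, at 879 and 636 CPM (0.724, 0.697 to 0.752). By role, then, no gene of the helicase, clamp or nucleotide roles was at least 1.5-fold higher in the resistant library, while the G1/S regulators (E2f1, 1 of 2 compared) and every mitotic role but mitotic chromatin held at least 1 such gene. This summary is for the 10% mitochondrial limit. With a limit of 20% such genes numbered 1 of 44 (1.99% of all genes), and with 5% they numbered 27 of 43 (3.57%).

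**Figure D3:**
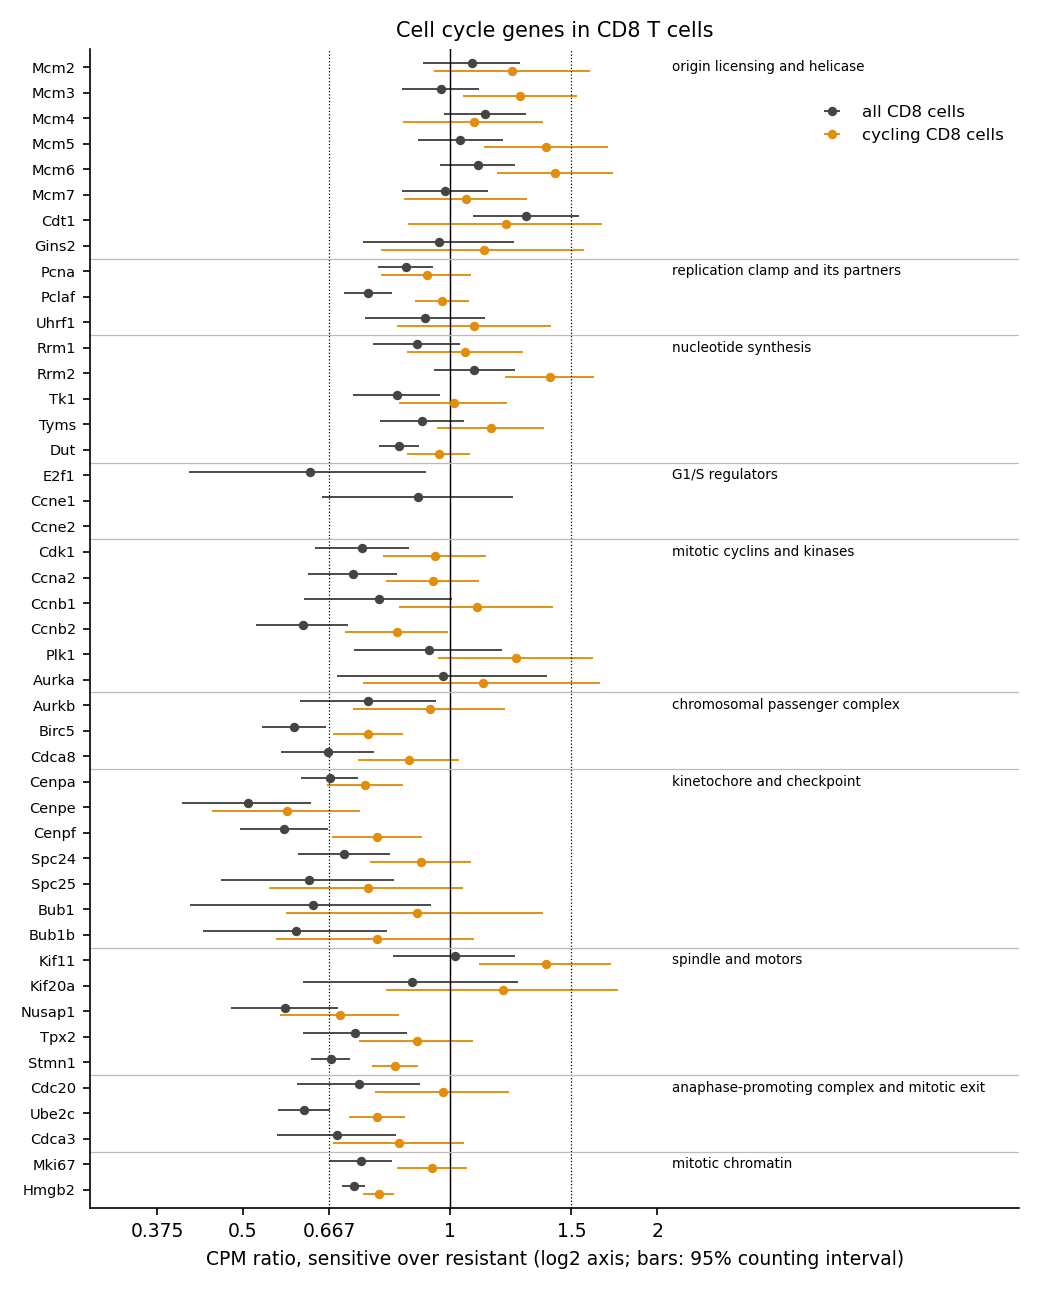
Sensitive over resistant CPM ratio (log2 axis) of each cell cycle gene in all CD8 cells and in cycling CD8 cells, grouped by role, with exact 95% counting intervals and dotted lines at 1.5-fold either way; genes under 100 UMIs are not drawn. Kinetochore genes lie to the left, with Cenpe at 0.508, and helicase genes lie around 1 in all cells and to its right, up to 1.42, in cycling cells.

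The difference in level was smaller within the cycling cells, and part of it remained. The CPM in cycling CD8 cells came from 118 sensitive cells with a median of 6395 UMIs and 212 resistant cells with a median of 8052 UMIs. Of 42 genes compared, 1 was at least 1.5-fold higher in the resistant library, Cenpe (143 against 82.9 CPM, ratio 0.579, 0.451 to 0.738), and 0 in the sensitive library, against 3.33% and 6.82% of all genes. The median ratio was 0.956, beside 1.09 over all genes. The mitotic sum was 7467 CPM in the resistant and 6200 CPM in the sensitive library (0.830, 0.806 to 0.855), and the S-phase sum 3131 and 3377 CPM (1.08, 1.03 to 1.12). The S-phase over mitotic ratio of 1.30 (1.24 to 1.37) was close to the 1.32 over all cells, and it stayed above 1 under every alternative run, from 1.13 to 1.40. The S-phase sum by itself was 0.993 when divided by the median ratio of all genes and 0.850 as a mean over cells, so its direction within cycling cells depended on the scaling, whereas that of the mitotic sum did not.

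In the cycling cells the helicase role had the highest summed ratio (1.23, 1.14 to 1.33) and the kinetochore role the lowest (0.773, 0.718 to 0.831). Mcm6 was at 124 CPM in the resistant and 176 CPM in the sensitive library (1.42, 1.17 to 1.73), Mcm5 at 111 and 154 CPM (1.38, 1.12 to 1.70), and Rrm2 at 212 and 296 CPM (1.39, 1.20 to 1.62). Kif11 was the mitotic gene with the highest ratio, at 99.2 and 137 CPM (1.38, 1.10 to 1.71). The sensitive cells thus had a higher CPM of these 4 transcripts, by less than 1.5-fold. Nusap1 was at 192 and 133 CPM (0.692, 0.566 to 0.842), Birc5 at 510 and 388 CPM (0.760, 0.676 to 0.854), and Ube2c at 753 and 590 CPM (0.783, 0.712 to 0.860). Hmgb2 was at 2586 and 2035 CPM (0.787, 0.748 to 0.828) and Stmn1 at 1081 and 898 CPM (0.830, 0.768 to 0.897). Mki67, Cdk1, Ccna2, Pcna and Pclaf lay between 0.924 and 0.973, with intervals that included 1.

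In the CD8 cells that were not called cycling, 26 genes could be compared and 1 was at least 1.5-fold higher in the resistant library and 0 in the sensitive library, against 1.99% and 5.86% of all genes. The former was Ccnb2, with 111 UMIs in the resistant and 44 in the sensitive library (ratio 0.516, 0.355 to 0.738). The S-phase sum was 684 and 674 CPM (0.984, 0.942 to 1.03) and the mitotic sum 653 and 567 CPM (0.868, 0.829 to 0.909).

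Within each library the 45 genes were concentrated in the cycling CD8 cells to different degrees. The sensitive library's cycling cells held 16.6% of all CD8 UMIs but 61.3% of the UMIs of the 45 genes (49.9% of S-phase and 68.5% of mitotic UMIs), and the resistant library's held 22.2% of all and 70.0% of the genes' UMIs (56.6% and 76.5%). UMIs of a gene are therefore clustered in few cells, and the counting intervals are narrower than the spread between cells would give. Comparing cycling with other CD8 cells, 36 of 37 genes were at least 2-fold higher in the sensitive library and 40 of 40 in the resistant library, against 5.13% and 4.69% of all genes. In neither library was 1 of them 2-fold lower in cycling cells, where 3.36% (sensitive) and 1.94% (resistant) of all genes were. The call rests on other cell cycle genes, so this rise describes how far each gene follows them.

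The mitotic regulators rose most. Cenpf rose from 2.81 CPM in other CD8 cells to 232 CPM in cycling cells of the sensitive library (82.6-fold, 49.1 to 150) and from 6.90 to 296 CPM in the resistant library (42.9-fold, 31.9 to 58.8). Ccna2 rose 44.4-fold and 40.8-fold, and Plk1 51.3-fold and 35.8-fold, in the sensitive and resistant libraries. Ccnb1, cyclin B1, rose 61.0-fold (29.8 to 145) from 8 UMIs in the other cells of the sensitive library, and 29.1-fold (18.2 to 48.9) in the resistant library, so the intervals of the 2 libraries overlapped for it as they did for Cenpf. Among S-phase genes Rrm2 (22.6-fold and 20.2-fold) and Pclaf (16.5-fold and 14.1-fold) rose within the range of the mitotic genes. Pcna rose 2.76-fold and 2.77-fold and Mcm4, a helicase subunit, 2.29-fold and 2.71-fold. Cdt1 was the only gene under 2-fold, at 1.84-fold in the sensitive library, with 2.17-fold in the resistant library. The abundant Hmgb2 rose 5.67-fold and 6.6-fold and Cenpa 5.67-fold and 5.96-fold, and both were also present in cells not called cycling, Hmgb2 at 359 CPM in the sensitive library.

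**Figure D4:**
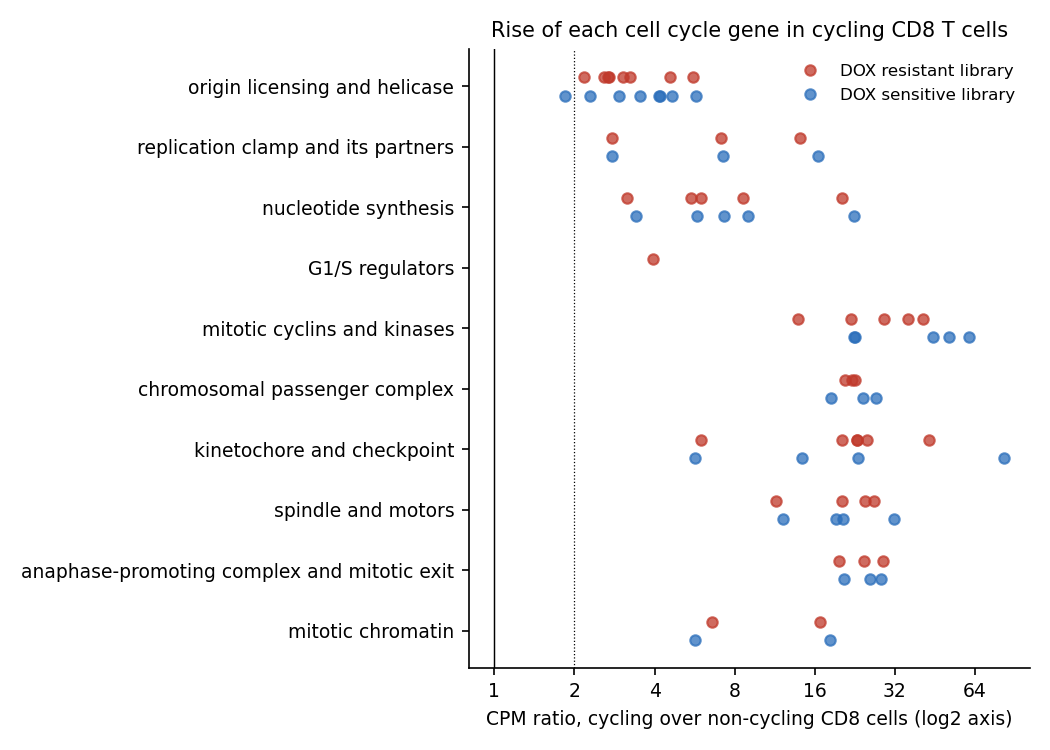
CPM ratio of cycling over other CD8 cells (log2 axis) of each gene with at least 100 UMIs, by role, in the 2 T cell libraries, with a dotted line at 2-fold. Helicase genes lie lowest, Cdt1 at 1.84 in the sensitive library, and mitotic genes highest, Cenpf at 82.6 and 42.9.

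The S-phase over mitotic ratio of the libraries' cycling CD8 cells can be restated, from the same UMIs, as a share. S-phase genes made up 29.5% (28.9 to 30.2) of the S-phase and mitotic UMIs of the resistant cells and 35.3% (34.3 to 36.2) of those of the sensitive cells. Per cell, the median share was 44.3% and 50.0%. Of 208 resistant cycling cells with such a UMI, 26 held over 75% S-phase UMIs, 67 held under 25% and 115 lay between. Of 109 sensitive cells the counts were 24, 24 and 61. Both libraries therefore held cells of both kinds, and the classes are ranges of 1 measure, with most cells between them.

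**Figure D5:**
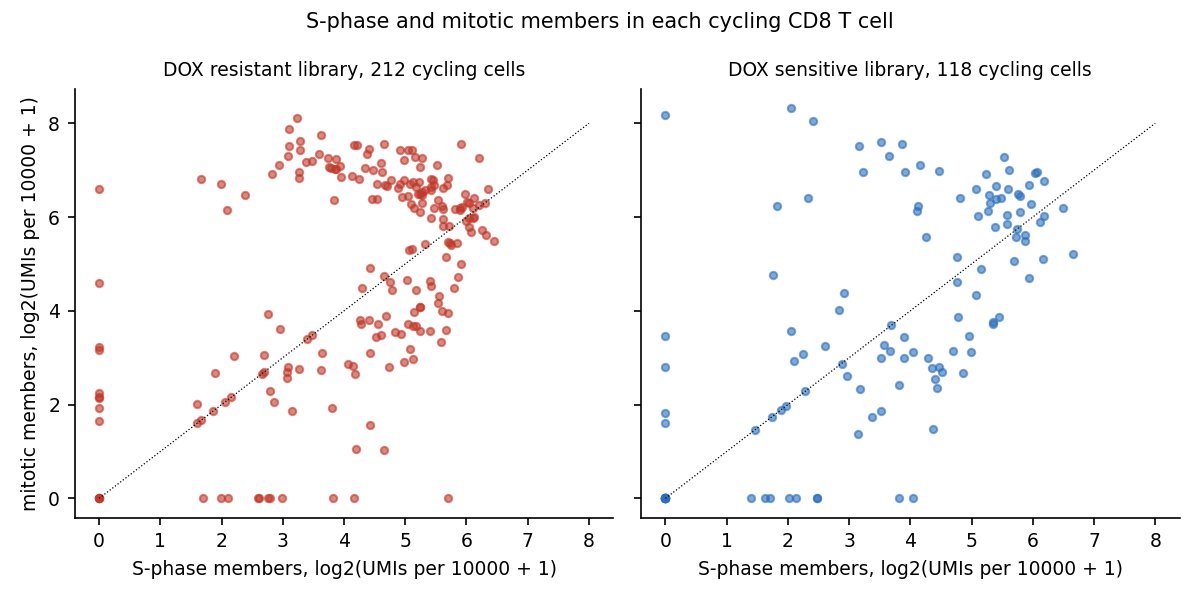
S-phase (x axis) and mitotic (y axis) UMIs per 10000 UMIs of the cell, as log2(value + 1), in each cycling CD8 cell of the 2 T cell libraries, with a dotted line of equality. Cells with high mitotic and low S-phase levels lie at the upper left in both libraries, and under 25% S-phase UMIs were held by 67 of 208 resistant and 24 of 109 sensitive cells.

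In the cancer gate most of the genes compared were higher in the sensitive library, but the direction of the mitotic sum depended on how strictly the gate was set. Of 30 genes compared, 9 were at least 1.5-fold higher in the sensitive library and 0 in the resistant library, against 4.78% and 2.63% of all genes, and the median ratio was 1.29 beside 1.04. Rrm2 was at 22.6 CPM in the resistant and 71.3 CPM in the sensitive library (3.16, 2.30 to 4.40), Tyms, thymidylate synthase, at 30.1 and 64.6 CPM (2.15, 1.60 to 2.90), and Aurkb, with 27 and 50 UMIs too few to be among the 30, at 11.3 and 23.9 CPM (2.12, 1.30 to 3.52). Both enzymes serve the supply of deoxynucleotides, and the role's other 1.5-fold gene was Tk1. The lowest ratios were those of Kif11 (20.1 and 13.4 CPM, 0.668, 0.404 to 1.09), Stmn1 (199 and 164 CPM, 0.821, 0.712 to 0.945) and Mcm4 (42.6 and 37.8 CPM, 0.887, 0.653 to 1.20). The S-phase sum was 848 and 1106 CPM (1.30, 1.23 to 1.38) and the mitotic sum 1136 and 1468 CPM (1.29, 1.23 to 1.36). A stricter gate turned the mitotic ratio to 0.878 (0.824 to 0.936). Within the 16 resistant and 20 sensitive cycling cancer cells, 5 of 24 genes were 1.5-fold higher in the sensitive library (10.1% of all genes) and 2 in the resistant library (6.93%). The 5 were 3 genes of nucleotide synthesis (up to 2.82), 1 kinetochore gene (1.62) and 1 gene of mitotic exit (1.76). The 2 were Stmn1 (616 and 340 CPM, 0.552, 0.452 to 0.673) and Ube2c (666 and 430 CPM, 0.646, 0.538 to 0.775). In these cycling cells the S-phase sum was 1904 CPM in the resistant and 2619 CPM in the sensitive library, and the mitotic sum 4602 and 4391 CPM. Cycling cancer cells, compared with other cancer cells, were at least 2-fold higher in 18 of 18 genes in the sensitive library (4.12% of all genes) and in 13 of 15 in the resistant library (3.7%), the other 2 being Pcna, just under 2-fold, and Dut (1.24). None was 2-fold lower, where 3.28% and 3.2% of all genes were. Cancer cells here are those that escaped depletion through CD90.1, and whether they represent the tumors' cancer cells was not tested.

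The other gates gave fewer genes. In NK cells 5 of 7 genes were at least 1.5-fold higher in the resistant library and 0 in the sensitive library, against 6.52% and 11.3% of all genes, over all 46 resistant and 79 sensitive cells of the gate. These values rested on few cells. The 6 resistant and 7 sensitive cycling cells held 82.8% and 68.3% of the gate's UMIs of the 45 genes, and 32.2% and 15.1% of all its UMIs. Pclaf was at 264 CPM in the resistant and 97.5 CPM in the sensitive library (0.369, 0.249 to 0.541), and Stmn1 at 602 and 290 CPM (0.482, 0.382 to 0.606). The other extremes rested on few UMIs: Spc24 had 33 and 14 (0.340) and Tyms 25 and 11 (0.353), while Mcm4 (1.18), Cenpf (1.22) and Cdk1 (1.55, 0.783 to 3.19) had intervals that included 1. Within these cycling NK cells, 0 of 5 genes were at least 1.5-fold higher in the resistant library (17.2% of all genes) and 1 in the sensitive library (7.33%). The 1 gene was Ube2c (478 and 1193 CPM, 2.49, 1.73 to 3.62). Of the 5 ratios 3 lay below 1, and their median was 0.843.

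In macrophages 5 of 11 genes were at least 1.5-fold higher in the resistant library and 0 in the sensitive library, against 3.15% and 5.61% of all genes. The list of immature neutrophil markers (Ngp, Camp, Ltf, Chil3, Mpo and Elane) differed between the same cells, at 70.4 CPM in the resistant and 850 CPM in the sensitive library. Of these 6 markers 2 and 3 had UMIs, and macrophage markers summed to 12744 and 15723 CPM. The neutrophil markers went the other way, at 385 and 203 CPM. The part of either list in the ratios was not tested. Dut was at 52.2 CPM in the resistant and 25.4 CPM in the sensitive library (0.486, 0.334 to 0.700), Hmgb2 at 232 and 149 CPM (0.641, 0.548 to 0.75) and Stmn1 at 115 and 74.1 CPM (0.645, 0.515 to 0.807). Cdca8 (42 and 23 UMIs, 0.477) and Rrm2 (39 and 22 UMIs, 0.492) were as low on few UMIs, and the highest ratios, of Ube2c (1.12), E2f1 (1.19) and Tyms (1.20), had intervals that included 1.

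In fibroblasts the sums were level, 0.959 (0.913 to 1.01) for S phase and 0.982 (0.924 to 1.04) for mitosis, and 2 of 30 genes were 1.5-fold higher in the sensitive library and 0 in the resistant library, against 5.85% and 1.95% of all genes: Cdc20 (3.97 and 7.05 CPM in the resistant and sensitive library, 1.78, 1.20 to 2.68) and Mcm6 (6.33 and 9.54 CPM, 1.51, 1.09 to 2.1). Cdt1 (1.42) came next, and Ccne2, cyclin E2 (0.390), Nusap1 (0.504) and Aurkb (0.513) were lowest, each under 100 UMIs. In CD4 cells 1 of 4 genes, Stmn1 (250 and 133 CPM, 0.534, 0.384 to 0.753), was higher in the resistant library and 0 in the sensitive library, against 6.62% and 14.2% of all genes. Birc5 (0.213), Cenpa (0.261) and Cdca8 (0.352) were lowest and Mcm3 (1.76), Cdt1 (1.54) and Mcm6 (1.51) highest, again under 100 UMIs, with 4 resistant cycling cells behind the values. In T cells outside the CD8 and CD4 gates, 3 of 25 genes were 1.5-fold higher in the sensitive library and 0 in the resistant library, against 10.3% and 2.27% of all genes, the former being the helicase gene Mcm3 (1.53), Rrm1 (1.76) and Spc24 (1.77). With at least 30 UMIs, Plk1 (1.98, 0.798 to 5.89) and Ccnb1 (1.83, 0.899 to 4.10) were higher still, and Cenpe (0.736, 0.426 to 1.30), Dut (0.752, 0.634 to 0.892) and Pcna (0.788, 0.638 to 0.977) were lowest.

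The whole-tumor libraries held too few cells to follow single genes, and 23 of the 45 genes had a UMI in the sensitive one. In the T cell, NK, cancer, fibroblast and macrophage gates together, 4 of 101 control cells (3.96%, 1.09 to 9.83), 0 of 18 sensitive cells (an exact upper limit of 18.5%, or 16.7% as 3 counts of 18) and 9 of 97 resistant cells (9.28%, 4.33 to 16.9) were cycling, and these ranges overlap. Of the 19 sensitive cells in these gates before thinning, 9 were in the macrophage gate, where neutrophil markers summed to 9165 CPM and macrophage markers to 5424 CPM, against 1028 and 9068 CPM in the resistant and 2195 and 8898 CPM in the control library, and their part in the share was not tested. Without thinning the shares were 18.0% (11.4 to 26.4) in the control, 21.1% (6.05 to 45.6) in the sensitive and 46.4% (36.2 to 56.8) in the resistant library, where the control and resistant ranges do not overlap. The mix of gates differed, with 66 T and NK and 25 cancer cells in the control and 17 and 41 in the resistant library. In each single gate the resistant share without thinning was the higher and the ranges overlapped, as in the cancer gate, at 56.0% (34.9 to 75.6) in the control and 68.3% (51.9 to 81.9) in the resistant library. The part of the mix was not tested. The median depth per barcode was 2682 UMIs in the resistant and 1532 in the control library. Over all cells outside the neutrophil gate, including those with no lineage or more than 1, the counts were 9 of 145 in the control (6.21%, 2.88 to 11.5), 0 of 30 in the sensitive (up to 11.6%) and 9 of 120 in the resistant library (7.50%, 3.49 to 13.8). The cycling cells included 5 of 41 cancer cells in the resistant and 1 of 23 in the control library, and 3 of 17 and 2 of 59 T and NK cells. Neutrophils made up 52.5% to 81.4% of the kept cells, with 0 of 297, 1 of 185 and 0 of 134 called cycling in the control, sensitive and resistant libraries. Markers of immature neutrophils differed between these gates, at 4027, 1974 and 37.4 CPM in the same order, and their part was not tested. Though few were called cycling, the neutrophils held UMIs of the 45 genes: of 539 in the control library's neutrophils, 482 were of Hmgb2, and Pcna had 18. A level of Hmgb2 alone therefore did not mark cycling cells in these libraries. In the cancer gate, from 25, 6 and 41 cells, the mitotic sum was 1278 (1164 to 1401), 662 (436 to 963) and 855 (794 to 920) CPM and the S-phase sum 572 (496 to 656), 294 (152 to 514) and 576 (526 to 630) CPM in the control, sensitive and resistant libraries. Neutrophil markers differed between these cells: they summed to 1920, 3871 and 976 CPM, against 6276, 2426 and 5379 CPM of cancer markers, so in the 6 sensitive cells they exceeded the cancer markers. Their part in the sums was not tested.

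Other genes of the pathway were counted from lists of G1 cyclins with their kinases and of inhibitors with pocket proteins. In CD8 cells, 0 of 5 compared G1 genes reached 1.5-fold in either direction. The largest ratio was that of Ccnd2, cyclin D2, at 211 CPM in the resistant and 297 CPM in the sensitive library (1.40, 1.32 to 1.5). Within the cycling cells it was 1.57 (1.30 to 1.90), and in both libraries Ccnd2 was lower in cycling than in other CD8 cells (0.593 and 0.505). Of 9 compared inhibitors and pocket proteins, 1 was higher in the resistant library: Cdkn2b, the CDK4 and CDK6 inhibitor p15, at 17.4 and 5.46 CPM (0.313, 0.210 to 0.454), mostly in cells not called cycling. The caller genes themselves followed the 45, with 10 of 43 at least 1.5-fold higher in the resistant library and a median ratio of 0.729, Melk being lowest at 0.554. These counts stand against the 2.33% (resistant higher) and 5.54% (sensitive higher) of all genes in this gate.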

How the data were processed

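The authors aligned the reads to mm10 and deposited raw UMI counts per gene and cell, made with Cell Ranger (6.0.0 for the T cell libraries, 3.0.1 for the whole-tumor libraries). The whole-tumor and T cell libraries were prepared and counted separately and were never compared with each other. Library totals were 31690845 and 35908799 UMIs in the T cell and 537293 to 1731940 in the whole-tumor libraries, and precision is set by the UMIs of each gene. The study does not give a cell annotation among the files used here, so lineages were assigned anew and may differ from the study's.

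In the T cell libraries, barcodes under 500 genes or over 10% mitochondrial UMIs were dropped, and in the whole-tumor libraries those under 200 genes. Putative doublets, the 159 resistant and 112 sensitive cells with the highest Scrublet scores (scanpy 1.11.5), were removed, at 0.8% per 1000 barcodes, and none were removed from the small whole-tumor libraries. A lineage was assigned where at least 3 in 8 of its markers had a UMI, a rule chosen after the data were seen. NK cells met no lineage, had no Cd3 UMI, and had an Ncr1 UMI or at least 3 NK markers. Each cell was thinned at random to 1000 UMIs for the cycling call, leaving out shallower cells (3 resistant and 7 sensitive in the CD8 gate). UMIs were summed over cells per gate, and CPM ratios got exact conditional binomial 95% intervals, shares exact Clopper-Pearson intervals and ratios of shares intervals from the log delta method. A gene was compared with at least 100 UMIs over both groups, and called at 1.5-fold (2-fold between cycling and other cells). The scripts were tested on simulated data (Python 3.11.15, scipy 1.17.1).

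The 45 genes and the gene lists were chosen with earlier results of these data known. In the CD8 gate, values were given for the genes with the highest and lowest ratio and the highest level of each role. In other gates the 3 highest and 3 lowest ratios among genes with at least 30 UMIs were named, and of other pathway lists the largest ratio. Genes passing the fold in a count of 5 or fewer, and the examples for cycling cells and for cycling over other cells, were chosen after their values were seen. Alternatives covered the thinning depth, the caller, doublets, the mitochondrial limit, the gate, the scaling and the UMI minimum.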

Additional observations from a re-analysis of the deposited data

Results flagged for a closer look

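The cycling share moved in opposite directions in 2 lineages of the same libraries. The sensitive over resistant ratio was 0.664 in the CD8 gate and 1.63 in the cancer gate. The difference between these ratios was not tested, since each group is 1 library, and the counting interval of the cancer ratio (0.900 to 2.94) includes 1. With at least 3 caller UMIs the cancer ratio was 3.90 (1.62 to 9.40). In CD8 cells with 5 to 10% mitochondrial UMIs the resistant share was the lower (9.96% against 15.7%, ratio 1.57, 0.920 to 2.69). The cancer cells are those left after depletion, 109 resistant and 83 sensitive.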

How the results depend on the processing

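No paired analysis was possible because each group is 1 library. For the same reason no library could be left out. The CD8 cycling ratio (0.664) stayed below 1 under every alternative run, with 0.863 for at least 1 caller UMI, 0.506 for at least 3, and 0.455 for a mitochondrial limit of 5%, which was added after seeing the data, but its interval included 1 with the Mki67 call (0.716, 0.504 to 1.02). With at least 3 caller UMIs the CD4 ratio was 0.181 and the cancer ratio 3.90 (1.62 to 9.40). Thinned to 500 UMIs, the fibroblast ratio was 0.235.

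The whole-tumor shares in the T cell, NK, cancer, fibroblast and macrophage gates together depended most on the call: without thinning they were 18.0% (control), 21.1% (sensitive) and 46.4% (resistant), and with at least 1 caller UMI 19.8% (control) and 26.8% (resistant). A call from 3 UMIs of the 45 genes gave 10.9% (control), a call from Mki67 gave 0.990% (control) and 2.06% (resistant), and both 500 UMIs and at least 3 caller UMIs gave 4.12% (resistant).

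In all CD8 cells, the S-phase and mitotic ratios and the count of genes at least 1.5-fold higher in the resistant library were 1.03, 0.797 and 1 with a mitochondrial limit of 20%, 0.720, 0.504 and 27 with 5%, 0.836, 0.634 and 18 relative to the median of all genes, and 0.855, 0.650 and 22 as a mean over cells, which also put 1 gene higher in the sensitive library (3.13% and 6.75% of all genes on that scale). The S-phase over mitotic ratio was 1.43 with the 5% limit. In cycling CD8 cells, the mitotic ratio was 0.862 with the 20% limit, 0.784 with 5%, 0.764 relative to the median and 0.75 as a mean over cells. The S-phase ratio there turned to 0.993 relative to the median and 0.850 as a mean over cells, and that of Mcm3 to 0.972 as a mean over cells. The S-phase over mitotic ratio was 1.40 with the 5% limit and 1.13 as a mean over cells. The genes higher in the resistant library numbered 2 of 41 with the 5% limit (3.26% of all genes), 2 of 42 relative to the median (5.09%), 2 of 44 with at least 30 UMIs (5.39%) and 5 of 42 as a mean over cells (4.13%), and a stricter gate put 1 of 42 higher in the sensitive library (6.58%).

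In all cancer cells, the mitotic ratio turned to 0.878 with the stricter gate and was 1.10 with the 5% limit and 1.36 as a mean over cells, and the S-phase ratio was 1.19 with no doublets removed and 1.16 as a mean over cells. In cycling cancer cells, the S-phase ratio was 1.20 with no doublets removed, 1.76 with the stricter gate and 1.25 as a mean over cells, and the mitotic ratio 0.742 with the stricter gate, 0.896 with the 5% limit and 1.07 as a mean over cells. The main mitotic sums there were 4602 CPM (resistant) and 4391 CPM (sensitive), so the mean over cells turned the direction.

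Without Hmgb2, Mcm3 and Dut, the S-phase share of UMIs in cycling CD8 cells was 33.5% (resistant) and 39.3% (sensitive). A call from Mki67, with Mki67 left out, gave 39.6% for sensitive CD8 cells and 12.1% for sensitive cancer cells. The causes of these shifts were not tested. Few cycling cells stand behind the CD4, NK, macrophage and whole-tumor values.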
